A study of Mus musculus with 4 samples.

Results

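Osteopontin is a secreted, phosphorylated glycoprotein of bone matrix, encoded by *Spp1*. It is also made by myoblasts, macrophages and many other cells, and is abundant in injured and dystrophic skeletal muscle. It binds cells through integrins and through Cd44, a transmembrane glycoprotein that is best known as the receptor of hyaluronan. Cd44 is used as a surface marker of mesenchymal and muscle-derived stem cells (MDSCs), and myoblasts use it in migration and fusion. The ligand and the receptor were followed here in RNA from 4 types of MDSC, as the 2 genes with the symbols *Spp1* and *Cd44* among the 268 genes of a membrane array for stem cell-related transcripts. Each had 1 spot, out of 274 gene spots.

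The MDSCs came from hind limb muscle of male mice by preplating, in which cells are passed through successive plates and the slowly adhering ones are kept. The Mst KO mice carried Mst-/-, the inactivated myostatin gene, and the mdx mice, 10ScSn-Dmdmdx, have no dystrophin and are a mouse counterpart of Duchenne muscular dystrophy. The Oct4 transgenic mice carried an OCT4 promoter with a reporter, and the WT mice were wild type. The background strain is given as C57BL/6J for all 4. The mdx label and the paper's name for its mdx mice both include 10ScSn, so whether mdx and WT shared a background is not settled. The WT and Mst KO donors were 12 to 16 weeks old, and no age is given in the sources used here for the mdx and Oct4 transgenic donors. Both WT and Mst KO cultures had been selected for Sca1. Cells were grown to near confluence in 20% serum, and RNA was pooled from 3 flasks for each MDSC type. The paper describes the WT and Mst KO cells at this point as still below confluence and not in myogenesis. The paper does not describe the Oct4 transgenic array, and which reporter was used and how these cells were selected is not given in the sources used here. One pool and 1 array stood for each MDSC type. No spread between cultures could be estimated, no test was run, and each ratio compares 2 libraries of RNA rather than 2 genotypes.

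The *Spp1* gene lies on the plus strand of mouse chromosome 5, at chr5:104435111-104441053 of GRCm38.p6, and the *Cd44* gene on the minus strand of chromosome 2, at chr2:102811141-102901669. RefSeq lists 5 curated transcripts for *Spp1*, and 6 curated and 5 predicted transcripts for *Cd44*, whose variable exons are alternatively spliced. The array design assigns its spots to NM_009263 for *Spp1* and NM_009851 for *Cd44*, and a single spot cannot tell splice variants apart. The 250 bases before a RefSeq transcript start of each gene are shown, 5′ to 3′ on the strand of the gene. They are shown because the profile of *Spp1* over the arrays lay nearest, as deposited, to those of muscle genes. Capitals mark the E-box CANNTG, the motif of basic helix-loop-helix factors such as MyoD, and AACCACA, a motif of the Runx factors of bone.
Spp1, 250 bases before the start: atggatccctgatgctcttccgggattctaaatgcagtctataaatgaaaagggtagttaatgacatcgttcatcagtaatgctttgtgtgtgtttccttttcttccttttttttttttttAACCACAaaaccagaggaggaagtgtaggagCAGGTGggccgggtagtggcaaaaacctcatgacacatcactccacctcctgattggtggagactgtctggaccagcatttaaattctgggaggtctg
Cd44, 250 bases before the start: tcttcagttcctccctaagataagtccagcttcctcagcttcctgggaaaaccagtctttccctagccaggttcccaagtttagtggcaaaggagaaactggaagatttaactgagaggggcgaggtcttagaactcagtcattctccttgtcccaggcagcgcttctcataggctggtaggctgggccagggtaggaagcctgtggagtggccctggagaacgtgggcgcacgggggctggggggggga

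The *Spp1* sequence, at chr5:104434861-104435110, had 1 E-box, CAGGTG, whose first base lay 98 bases before the start, and 1 AACCACA at 129 bases before it. Neither motif was found in the *Cd44* sequence, at chr2:102901666-102901915, whose last 4 bases lie within the annotated gene because the start given in the promoter table is at position 102901665. An E-box, read on both strands, occurred in 66.2% of the 32841 RefSeq promoter sequences of this length, and AACCACA in 4.40%. The corresponding window of the cardiac actin gene *Actc1* had 0 E-boxes, and that of the M-cadherin gene *Cdh15* had 3. These matches describe letters in a window, and binding was not measured.

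*Spp1* was highest in WT MDSCs and lower in each of the other 3 types. Its normalized spot intensity was 20.3 in Mst KO, 6.98 in mdx, 12.2 in Oct4 transgenic and 70.7 in WT MDSCs. The signal was therefore 28.7% of WT in Mst KO, 9.87% in mdx and 17.2% in Oct4 transgenic MDSCs. The spot was called present on all 4 arrays. No spot of any array was marked for bleeding from a neighbour, so the lack of a mark does not set *Spp1* apart. The adjacent *Sox3* spot had 49.9 in Mst KO, 39.4 in mdx, 50.0 in Oct4 transgenic and 38.6 in WT MDSCs. It was brighter than *Spp1* in all but WT MDSCs, and whether it added to the *Spp1* signal was not tested.

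*Cd44* had another order. Its normalized intensity was 1.81 in Mst KO, 1.15 in mdx, 3.31 in Oct4 transgenic and 1.60 in WT MDSCs, or 113%, 72.0% and 206% of WT for the 3 other types. It was highest in the Oct4 transgenic MDSCs and lowest in the mdx MDSCs, with Mst KO and WT close to each other between these. The spot was called present on all 4 arrays. The *Cd44* value on the mdx array lay between 0.898, the lowest intensity called present on that array, and 1.37, the highest called absent, so that its call there is near the limit of detection. The highest blank spot of each array stood at 0.733 for Mst KO, 0.708 for mdx, 0.841 for Oct4 transgenic and 0.533 for WT, below *Cd44* on the same array.

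**Figure D1:**
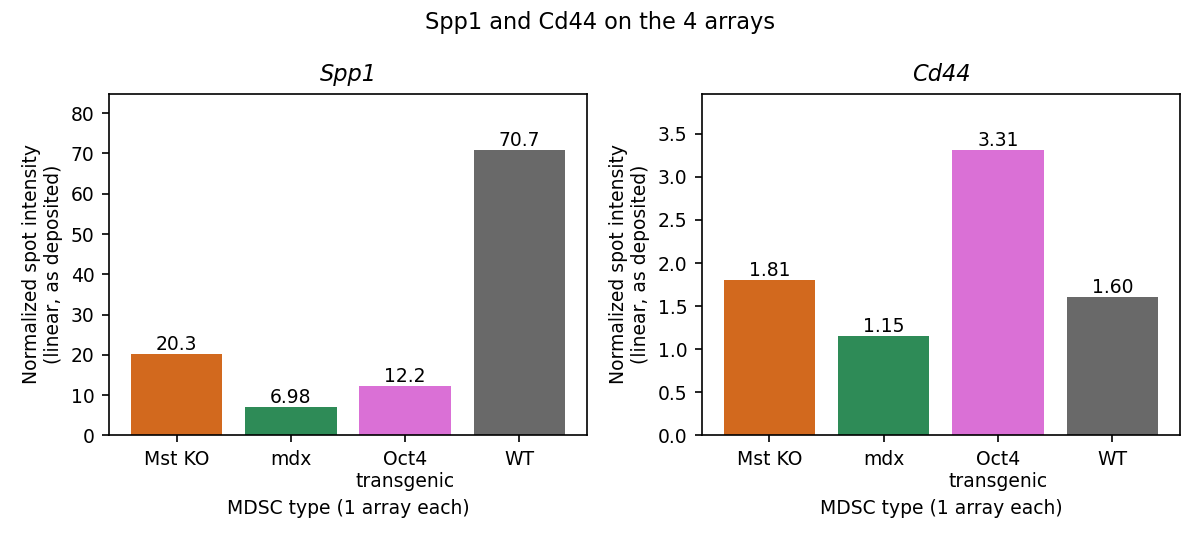
Normalized spot intensity (linear, as deposited) of *Spp1* and of *Cd44* in each MDSC type, each panel with its own axis from 0. Each bar is 1 spot on 1 array, so that there is no error bar, and *Spp1* is highest in WT at 70.7 while *Cd44* is highest in Oct4 transgenic MDSCs at 3.31.

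The signals before background correction had the same order for both genes. The raw *Spp1* spot read 7551 in Mst KO, 2338 in mdx, 3829 in Oct4 transgenic and 26362 in WT MDSCs. The membrane beside the spot was brighter where the spot was brighter, at 1193, 552, 736 and 3193 in the same order of arrays. The spot stood 6.33, 4.24, 5.21 and 8.26 times above its local background on these arrays. The dimmest *Spp1* spot was therefore still clear of the membrane around it.

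The raw *Cd44* spot read 844, 535, 1191 and 786 on the Mst KO, mdx, Oct4 transgenic and WT arrays, which was 2.52, 1.99, 3.41 and 2.84 times its local background. The margin of *Cd44* over the membrane was thus narrow on each array. The only measure of technical error was the spread between the 3 spots of *Gapdh*, *B2m* and *Ppia*, with a mean log2 SD of 0.05. These are bright housekeeping genes, and the spread between spots of a gene as dim as *Cd44* is not known.

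In Mst KO over WT MDSCs, 144 genes were called present on one array or both and were compared. The log2 ratio of *Spp1* was -1.80, a signal 3.49-fold lower in Mst KO MDSCs and the 6th lowest of the 144. A difference of 2-fold or more towards lower values was seen for 9.72% of the genes compared. *Cd44* had a log2 ratio of 0.17, within 2-fold where 16.7% of genes were past it in either direction, beside a median over the 144 genes of -0.04. The 5 genes with a lower ratio than *Spp1* were the gap junction gene *Gja1*, the myogenic regulator *Myod1*, *Actc1*, *Cdh15* and the T-cadherin gene *Cdh13*. *Gja1* and *Cdh13* were called absent in Mst KO MDSCs.

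*Spp1* was the gene furthest below WT in the mdx MDSCs. Its log2 ratio of -3.34, a signal 10.1-fold lower in mdx MDSCs, was the lowest of the 143 genes compared, of which 13.3% were lower at 2-fold or more. *Cd44* had a log2 ratio of -0.47, within 2-fold, where 21.7% of genes were past 2-fold in either direction and the median of all 143 genes was -0.03.

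The Oct4 transgenic MDSCs were the only type in which both genes lay past 2-fold, and they did so in opposite directions, on an array where 21.5% of genes were past 2-fold either way. *Spp1* had a log2 ratio to WT of -2.54, a signal 5.80-fold lower in Oct4 transgenic MDSCs and the 5th lowest of 144 genes, where 8.33% of genes were lower at 2-fold or more. *Cd44* had a log2 ratio of 1.04, a signal 2.06-fold higher in Oct4 transgenic MDSCs and the 16th highest, where 13.2% of genes were higher at 2-fold or more. The *Cd44* value lay just past the threshold. It fell within 2-fold under 5 of the 8 other ways of processing, with log2 ratios between 0.45 and 0.98. The 4 genes with a lower ratio than *Spp1* on this array were *Myod1*, *Cdh15*, *Actc1* and *Hdac1*, which encodes a histone deacetylase.

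**Figure D2:**
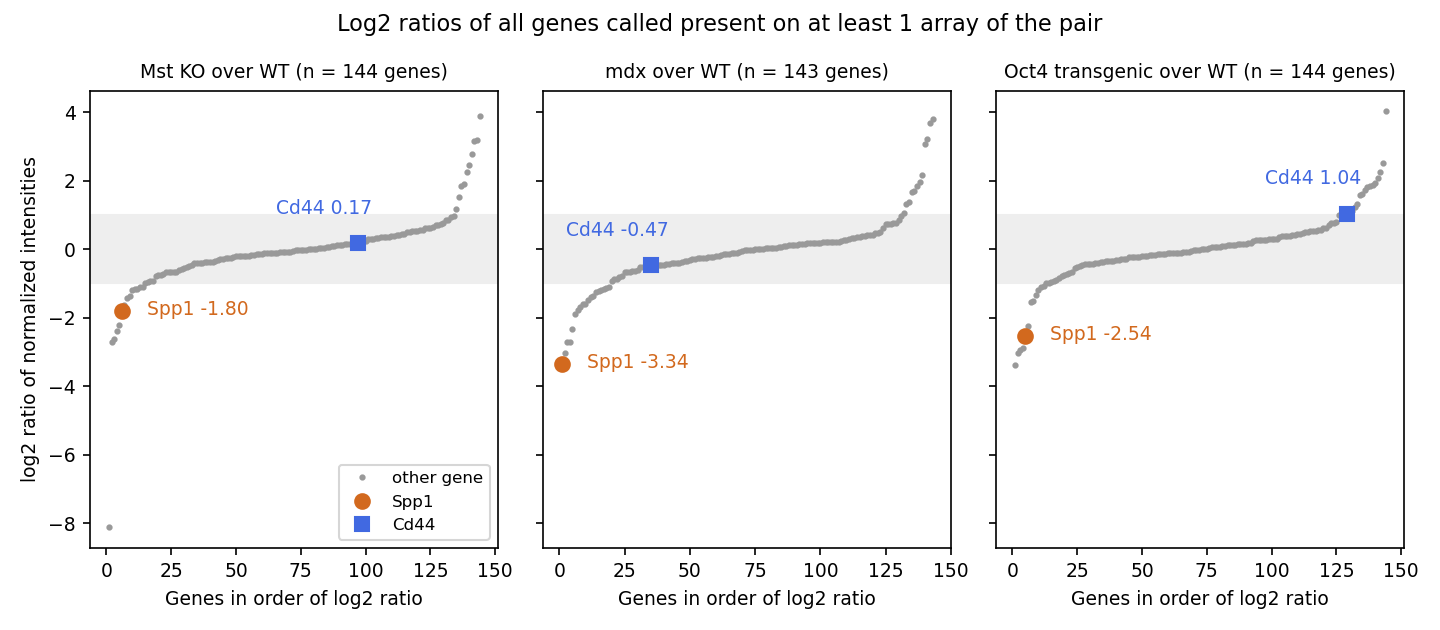
Log2 ratio to WT of every gene that was called present in either array of the pair, in order of ratio, for Mst KO, mdx and Oct4 transgenic MDSCs (grey points, with *Spp1* and *Cd44* marked). The shaded band is within 2-fold, and *Spp1* lies below it in all 3 panels at -1.80, -3.34 and -2.54, while *Cd44* lies above it only for Oct4 transgenic MDSCs, at 1.04.

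The 3 ratios to WT share the WT array, and they are not independent. Comparisons that leave WT out were therefore made as well. *Spp1* was lower in mdx than in Mst KO MDSCs, with a log2 ratio of -1.54, the 3rd lowest of 140 genes, where 2.86% of genes were lower at 2-fold or more. The log2 ratio of *Spp1* was -0.73 in Oct4 transgenic over Mst KO and 0.80 in Oct4 transgenic over mdx MDSCs, both within 2-fold. In these comparisons 17.6% of 142 genes and 19.0% of 137 genes were past 2-fold in either direction.

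*Cd44* was past 2-fold in one of the comparisons without WT as deposited. Its log2 ratio was 1.52 in Oct4 transgenic over mdx MDSCs, the 8th highest of 137 genes, where 10.2% of genes were higher at 2-fold or more. It was 0.87 in Oct4 transgenic over Mst KO and -0.64 in mdx over Mst KO MDSCs, where 6.43% of genes were past 2-fold in either direction. The first fell within 2-fold after scaling to *Gapdh* (0.94) and without background correction (0.80). The second was 0.07 after scaling to 5 housekeeping genes and -0.012 without background correction, and the last passed 2-fold with the 5 housekeeping genes (-1.04). From high to low the deposited levels of *Cd44* ran Oct4 transgenic, Mst KO, WT and mdx, with neighbours in this order less than 2-fold apart. The levels of *Spp1* ran WT, Mst KO, Oct4 transgenic and mdx, and in this order only WT and Mst KO lay more than 2-fold apart as deposited. Oct4 transgenic and Mst KO were also past 2-fold for *Spp1* under 3 of the 8 other ways of processing, with log2 ratios between -1.54 and -1.25.

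The dependence on the WT array differed between the genes. Over the 4 arrays the log2 span of *Spp1*, from its lowest to its highest array, was 3.34, the 3rd widest of the 112 genes present on all 4, whose median span was 0.69. Without WT it was 1.54, the 13th widest, beside a median of 0.57. The span of *Cd44* was 1.52 with and without WT, since its lowest and highest values lay on the mdx and Oct4 transgenic arrays.

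Relative to *Cd44*, the *Spp1* signal was lower than in WT in each of the other types, although in mdx MDSCs both genes were below WT. On one array, the log2 ratio of *Spp1* to *Cd44* does not depend on the factor by which an array was scaled, and its difference from WT was -1.97 in Mst KO, -2.87 in mdx and -3.58 in Oct4 transgenic MDSCs. It was furthest from WT in the Oct4 transgenic MDSCs, where *Cd44* was high, although the *Spp1* level itself was lowest in mdx MDSCs. With a local background for each spot the differences were -1.87, -2.76 and -3.63, and without background correction -1.91, -2.94 and -3.38.

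The genes whose levels followed those of *Spp1* most closely were ranked by the root mean square (RMS) difference between log2 profiles, each centred on its own mean over the 4 arrays. Of 149 genes present on at least 1 array, the 5 nearest to *Spp1* were *Actc1* at an RMS log2 difference of 0.42, *Cdh15* at 0.49, *Notch1*, a receptor of the Notch pathway, at 0.60, *Cdh13* at 0.63 and *Myod1* at 0.64. The 2 members were 1.34 from each other on this scale. With 4 points, of which WT was the extreme one for *Spp1*, such a likeness describes these arrays alone.

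*Actc1* had intensities of 6.52 in Mst KO, 4.87 in mdx, 5.23 in Oct4 transgenic and 39.9 in WT MDSCs, and *Cdh15*, which marks satellite cells and myoblasts, had 1.66, 1.34, 1.06 and 8.67. Both were high in WT and nearly level among the other 3 types. *Myod1* had 2.65, 2.68, 1.68 and 17.5 on the same arrays. The likeness to *Spp1* lay in the contrast with WT, for without WT the log2 span was 0.42 for *Actc1*, 0.65 for *Cdh15* and 0.67 for *Myod1*, against 1.54 for *Spp1*.

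Measured against these 3 genes on the same array, the *Spp1* signal stood less far below WT than theirs in 2 types and further below in the third. The log2 ratio of *Spp1* to *Actc1*, less the same ratio in WT, was 0.81 in Mst KO, -0.31 in mdx and 0.40 in Oct4 transgenic MDSCs. Against *Cdh15* the differences were 0.58, -0.64 and 0.50, and against *Myod1* 0.92, -0.64 and 0.84. The sign was the same for all 3 genes in each MDSC type. These genes had similar profiles, so their agreement is not 3 separate observations. *Notch1* and *Cdh13*, also among the genes nearest to *Spp1*, were left out here and would not share all the signs. The ratio of *Notch1* to its WT level was above that of *Spp1* in every type. That of *Cdh13* was below *Spp1* only in Mst KO MDSCs.

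*Notch1* was called absent in mdx, and *Cdh13* in both Mst KO and mdx MDSCs. Their intensities were 1.16, 0.824, 0.912 and 2.65 for *Notch1*, and 0.668, 0.622, 1.09 and 3.12 for *Cdh13*, in Mst KO, mdx, Oct4 transgenic and WT MDSCs. The order of the nearest genes depended on the background. With a local background for each spot, *Notch1* ranked 1st, *Actc1* 2nd, *Cdh15* 3rd and *Myod1* 6th, while *Cdh13* ranked 122nd.

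*Cd44* had neighbours at smaller distances, but the measure is not adjusted for span. The log2 span over the 4 arrays was 1.52 for *Cd44* and 3.34 for *Spp1*. Of the 5 genes nearest to *Cd44*, 3 are given here. These were the cyclin D1 gene *Ccnd1* at an RMS log2 difference of 0.20, the polarity gene *Pard6g* at 0.27 and *Hes1*, a target of Notch signalling, at 0.29. Each was called present on the 4 arrays, but on the mdx array all 3 lay below 1.37, the highest intensity called absent there. *Ccnd1* in WT and *Hes1* in Oct4 transgenic MDSCs also lay below the highest absent intensity of their arrays, 1.14 and 1.82. *Ccnd1* had 1.36 in Mst KO, 0.921 in mdx, 1.83 in Oct4 transgenic and 1.08 in WT MDSCs, *Pard6g* had 1.495, 1.31, 2.35 and 1.15, and *Hes1* had 1.31, 0.902, 1.68 and 1.39. The 3 genes were highest in Oct4 transgenic MDSCs, as *Cd44* was, and *Ccnd1* and *Hes1* were also lowest in mdx MDSCs, whereas *Pard6g* was lowest in WT. They were picked for their likeness to *Cd44*, so the shared order comes partly from that choice.

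**Figure D3:**
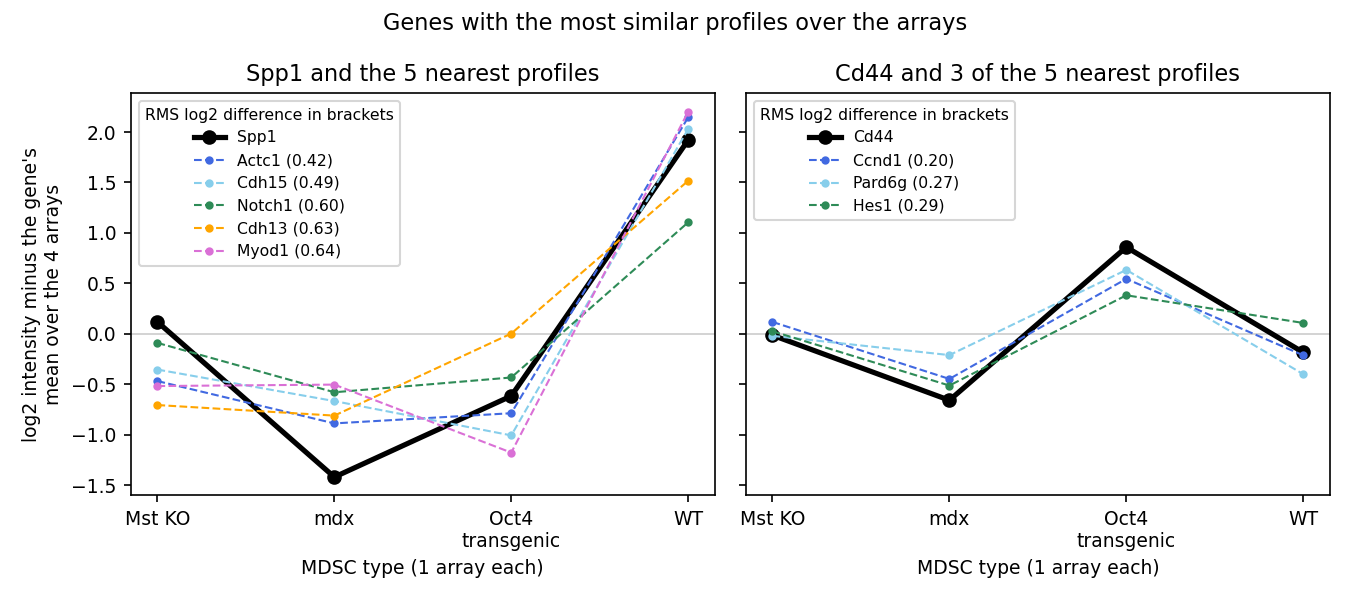
Log2 intensity, centred on the mean of each gene over the 4 arrays, of *Spp1* (left) with its 5 nearest genes and of *Cd44* (right) with 3 of its 5 nearest, and the RMS log2 difference in brackets. The genes near *Spp1* are high in WT only, and those near *Cd44* are highest in Oct4 transgenic MDSCs and, but for *Pard6g*, lowest in mdx MDSCs, with lines that join the arrays only to guide the eye.

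The partners of the 2 proteins could not be followed. None of the 27 listed integrin subunits, hyaluronan synthases, matrix metalloproteinases and other partners was a gene of the array. The one integrin spot, *Itga2*, a collagen receptor subunit chosen after its values were seen, was called absent on all 4 arrays at 0.198 to 0.266.

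Of the 21 symbols listed for bone, cartilage and matrix, which include older and newer names of the same genes, 7 were on the array. In Mst KO over WT MDSCs 4 of them could be compared, of which 2 were higher at 2-fold or more, 0 were lower and the median log2 ratio was 1.15, where 6.94% of all genes compared were higher. In mdx over WT MDSCs 1 of 3 was higher, where 8.39% of all genes were, and the median was -0.02. In Oct4 transgenic over WT MDSCs 1 of 3 was lower, where 8.33% of all genes were, and the median was -0.10. The medians over all genes compared were -0.04, -0.03 and -0.01 in these comparisons. *Col1a1*, a chain of type I collagen, had intensities of 55.0 in Mst KO, 105 in mdx, 30.1 in Oct4 transgenic and 32.2 in WT MDSCs, with its highest value in the mdx type, where *Spp1* was lowest. *Bmp4*, an inducer of bone, had 2.43, 0.654, 0.176 and 0.843, and was called absent in mdx and Oct4 transgenic MDSCs. *Bmp2* was called present only in Mst KO MDSCs, at 0.780. These were the 2 genes counted as higher in Mst KO MDSCs, and *Bmp4* was the 1 counted as lower in Oct4 transgenic MDSCs. *Bmp2* in Mst KO and *Bmp4* in WT lay below the highest intensity called absent on their arrays, 0.847 and 1.14. Those counts and the Mst KO median thus rest partly on spots near the limit of detection.

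*Akp2*, now named *Alpl* and encoding the alkaline phosphatase of mineralizing and stem cells, had 6.96, 6.30, 7.10 and 6.38 on the Mst KO, mdx, Oct4 transgenic and WT arrays, within 2-fold throughout. Only *Akp2*, *Col1a1* and *Bmp4* could be compared in all 3 types, and none of them was lower than WT at 2-fold or more in each. How many of all genes were lower in all 3 types was not counted.

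Of the 10 listed genes of skeletal myogenesis, 9 were on the array and 7 were compared. *Myod1*, *Actc1* and *Cdh15* were lower at 2-fold or more in each of the 3 comparisons with WT, and the other 4 were within 2-fold. Over all genes compared, 9.72% in Mst KO, 13.3% in mdx and 8.33% in Oct4 transgenic over WT MDSCs were lower at 2-fold or more. The median log2 ratio of the 7 was -0.28 in Mst KO, -0.47 in mdx and -0.90 in Oct4 transgenic over WT MDSCs. *Myf5*, which marks committed myogenic progenitors, had 2.67, 1.94, 2.48 and 2.69 in the Mst KO, mdx, Oct4 transgenic and WT MDSCs, and *Des*, the muscle intermediate filament desmin, had 6.52, 5.77, 6.09 and 7.92.

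Markers of other cells moved as well. The summed intensity of 4 mesenchymal markers, all on the array, was 141 in Mst KO, 212 in mdx, 63.0 in Oct4 transgenic and 43.0 in WT MDSCs, and 2 bright genes, *Col1a1* and the cadherin-11 gene *Cdh11*, made up most of it. *Cdh11* had 65.6, 68.7, 22.3 and 7.39 on these arrays, while *Col1a1* was no higher in Oct4 transgenic than in WT MDSCs. *Thy1*, a surface marker of fibroblasts, had another order, at 0.885, 0.529, 1.07 and 0.456, and was called absent in mdx and WT MDSCs. *Pdgfra*, the receptor that marks muscle fibroblasts and adipogenic progenitors, had 19.7, 37.5, 9.56 and 2.90 on these arrays. The 4 myogenic markers summed to 13.5, 11.7, 11.3 and 36.8. Among them *Myod1* and *Cdh15* were lower than WT at 2-fold or more in each type, while *Myf5* and *Des* stayed within 2-fold. In such bulk RNA fewer cells of a type and less RNA per cell cannot be told apart, and the part of cell makeup in the *Spp1* levels was not tested.

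Blood and endothelial markers were mostly called absent. Of 12 symbols listed for blood cell markers, which include an older and a newer name of the same gene, 7 were on the array. Only *Cd8a* was called present, at 2.85 in Mst KO, 1.82 in mdx, 1.67 in Oct4 transgenic and 2.86 in WT MDSCs. *Ptprc*, the defining marker of blood cells also known as Cd45, was absent on all 4 at 0.505, 0.440, 0.0804 and 0.0472. The 7 markers summed to 4.81, 4.06, 2.64 and 3.55. *Cd3e*, a T-cell gene outside the list that was chosen after its values were seen, was called present on the 4 arrays at 1.87, 1.70, 1.49 and 1.31. The 2 endothelial markers on the array were absent on all 4 and summed to 0.597, 0.640, 0.288 and 0.329. Of the 3 markers listed for MDSCs, *Cd44* was the only one analysed here.

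The levels of both genes were recomputed under 8 other ways of processing the spots, and the ratios to WT are plotted for each. The log2 ratio of *Spp1* lay between -1.94 and -1.44 in Mst KO, between -3.43 and -3.07 in mdx and between -3.00 and -2.50 in Oct4 transgenic over WT MDSCs. It stayed past 2-fold throughout, and the order of the 4 arrays for *Spp1* was kept under all 8. That of *Cd44* lay between 0.17 and 0.51 in Mst KO, between -0.53 and -0.20 in mdx and between 0.45 and 1.14 in Oct4 transgenic over WT MDSCs. Raising values to the lowest present intensity left both genes as deposited, and rounding barely changed them, so agreement under these settings was fixed in advance.

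**Figure D4:**
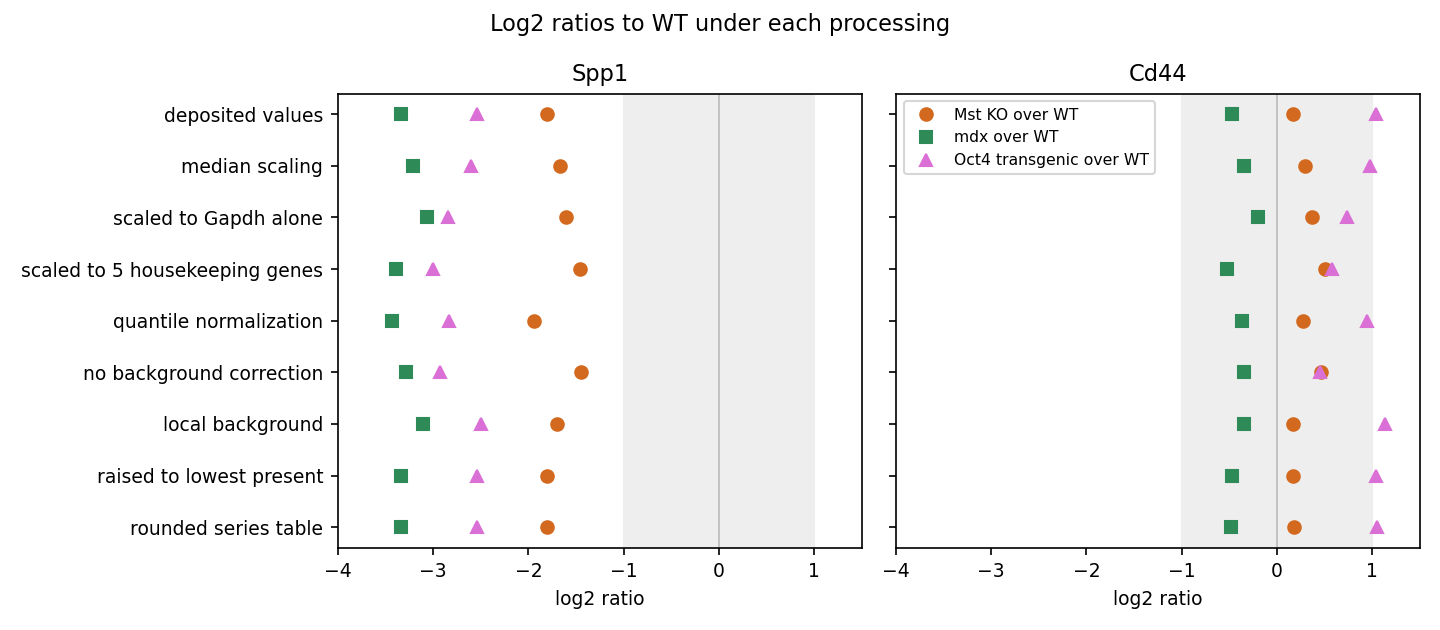
Log2 ratio to WT of *Spp1* and *Cd44* (x axis) under the deposited values and 8 other ways of processing (rows), for Mst KO, mdx and Oct4 transgenic MDSCs. The shaded band is within 2-fold, and every *Spp1* point lies below it, while the *Cd44* points of Oct4 transgenic MDSCs lie on both sides of its upper edge.

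Scaling changed the side of 2-fold for *Cd44* and not for *Spp1* in the ratios to WT. Housekeeping genes were not level over the arrays, since *Gapdh* had 97.7 ± 0.552 in Mst KO, 93.2 ± 1.99 in mdx, 139 ± 3.87 in Oct4 transgenic and 113 ± 3.71 in WT MDSCs (SD, n = 3 spots). The 2 housekeeping genes with a single spot were the chaperone gene *Hsp90ab1*, at 26.8, 30.1, 43.8 and 30.8, and the ribosomal gene *Rps27a*, at 14.6, 27.1, 24.7 and 20.5 in the same order of arrays. *B2m*, a subunit of class I MHC, had 22.5 ± 1.46, 36.1 ± 1.67, 72.2 ± 4.10 and 33.0 ± 1.27, a log2 ratio of 1.13 in Oct4 transgenic over WT MDSCs beside the 1.04 of *Cd44*. The share of genes called present was 49.6% in Mst KO, 47.0% in mdx, 48.5% in Oct4 transgenic and 50.7% in WT MDSCs.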

How the data were processed

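RNA of each MDSC type was hybridized to 1 membrane array of 288 spots (24 rows, 12 columns), of which 14 are controls. The authors deposited normalized spot intensities, used here, with raw intensities and present or absent calls. The background was each array's lowest spot and the call threshold was 1.5, per the file headers. The paper names housekeeping normalization, but on all 4 arrays subtracting the lowest spot and dividing by the average of the middle 144 spots gave the deposited intensity. A ratio was formed where either array of the pair had a present call, with spots of a gene averaged and 2-fold counted. Since each MDSC type had 1 array, no test was run, and the number of arrays limits the precision.

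Named genes are *Spp1* and *Cd44*, the 5 nearest profiles of each, listed genes present and past 2-fold, and housekeeping genes, and 2 of the genes nearest to *Cd44* are not reported here. *Akp2*, *Myf5*, *Des*, *Cd8a*, *Ptprc*, *Itga2*, *Cd3e*, *Sox3*, and the genes with lower ratios than *Spp1* lie outside this rule. The members and lists were chosen with earlier results of these data known. Symbols, positions and promoter sequences were taken from RefSeq (GRCm38.p6). The calculations were tested on simulated data. Python 3.11.15, numpy 2.4.6, pandas 2.3.3 and matplotlib 3.10.9 were used.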

Additional observations from a re-analysis of the deposited data

How the results depend on the processing

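Of the 96 values that the 12 ratios of *Spp1* and *Cd44* took under 8 alternatives, 84 stayed on the same side of 2-fold with the same sign. Raising values to the lowest present intensity could not change these ratios, since both genes lay above it on every array. The rounded values are the deposited ones with fewer digits. Agreement under these settings was therefore fixed in advance, and every change came from the other alternatives. *Spp1* in Oct4 transgenic over Mst KO MDSCs passed 2-fold, with log2 ratios of -1.25 after scaling to *Gapdh*, -1.54 after scaling to 5 housekeeping genes, and -1.49 without background correction, which also used those 5 genes. *Cd44* in Oct4 transgenic over WT MDSCs fell within 2-fold, at 0.98 after median scaling, 0.74 with *Gapdh*, 0.58 with 5 housekeeping genes, 0.95 after quantile normalization and 0.45 without background correction. *Cd44* in Oct4 transgenic over mdx MDSCs fell within 2-fold with *Gapdh* (0.94) and without background correction (0.80), and in mdx over Mst KO MDSCs it passed 2-fold with 5 housekeeping genes (-1.04). *Cd44* in Oct4 transgenic over Mst KO MDSCs was 0.07 with 5 housekeeping genes and turned to -0.012 without background correction, with the same scaling. The causes were not tested.

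Genes past 2-fold in Mst KO, mdx and Oct4 transgenic over WT MDSCs numbered 24, 31 and 31. They were 68, 85 and 74 with every gene counted, 50, 50 and 48 at 1.5-fold, 15, 19 and 17 at 3-fold, and 19 in mdx MDSCs without background correction. Scaling to 5 housekeeping genes moved the median log2 ratio of all genes by 0.34 in Mst KO, -0.05 in mdx and -0.46 in Oct4 transgenic over WT MDSCs, and scaling to *Gapdh* by 0.20, 0.27 and -0.31. Higher against lower genes were 10 against 14, 12 against 19 and 19 against 12 as deposited. They were 18 against 9, 12 against 19 and 11 against 24 with 5 housekeeping genes, and 14 against 9, 18 against 13 and 12 against 21 with *Gapdh*. Local background for the ratio of *Spp1* to *Cd44* was added after seeing the data.

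No paired analysis was possible because each MDSC type had 1 array, and for the same reason no array was left out within a type. *Cd44* is limited by its low signal over the membrane. Each member rests on 1 spot, and spot, array, culture and genotype cannot be told apart.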
